A study of Mus musculus with 22 samples.

Results

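This account concerns the CD45-positive fraction of EMT6 tumours from mice given JQ1 with paclitaxel, compared with the same fraction from vehicle-treated mice. A gene entered when 2 or more of the 10 CD45-positive libraries reached 1 FPKM, which left 10340 of the 24353 genes in the table. FPKM are fragment counts scaled by each gene's length and each library's depth. EMT6 is a mouse mammary carcinoma line. Wild-type BALB/c mice aged 5 to 6 weeks received 200000 of these cells in the left and right inguinal fat pads, and treatment began once tumours could be felt. JQ1 was given by gavage every day at 50 mg/kg and paclitaxel intraperitoneally at 10 mg/kg, 2 times a week, until the experiment ended. Dissociated tumours were separated with magnetic beads carrying an antibody to CD45, which enriches leukocytes in the bound fraction.

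The compared groups were JQ1 with paclitaxel (2 libraries, from 2 mouse codes) and vehicle (2 libraries, the right and left tumours of 1 mouse code). JQ1 alone, JQ1 with anti-PD-L1 antibody (10 mg/kg), and JQ1 with paclitaxel and anti-PD-L1 (the 3-drug group) had 2 CD45-positive libraries each. No group received paclitaxel without JQ1, so the comparison with vehicle measures both drugs together. What the mouse code stands for is not spelled out in the labels, and tumours with the same code may share an animal, so each p-value rests on the spread among tumours. Vehicle, JQ1 alone and JQ1 with anti-PD-L1 each held 1 code, so treatment and mouse cannot be told apart in the comparisons with vehicle and with JQ1 alone.

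JQ1 displaces BET proteins, which read acetylated lysines on histones at promoters and enhancers, from chromatin. Paclitaxel binds beta-tubulin and stabilises microtubules, which arrests cells in mitosis. Leukocytes of mammary tumours in mice are largely monocytes, macrophages and neutrophils, with fewer lymphocytes. Monocytes enter tumours from blood through the chemokine receptor CCR2 and mature there into macrophages.

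FPKM carry no read totals, and the number of reads per library was unknown. Relative depth could be read from how finely the low values were spaced, and it was 0.905 and 0.629 in the JQ1 with paclitaxel libraries and 1.30 and 1.44 in the vehicle libraries, so depth moved with group. Pan-leukocyte genes marked the fraction as labelled. Their summed level over 12 genes was 1849 and 1622 FPKM in JQ1 with paclitaxel and 2282 and 2460 FPKM in vehicle, against 143 to 379 FPKM in the CD45-negative libraries of both groups. Ptprc, which encodes CD45, had 38.6 and 40.1 FPKM in JQ1 with paclitaxel and 38.8 and 53.4 FPKM in vehicle.

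Differences were tested with limma on log2(FPKM + 1) in a fit of all 5 groups, so a fold change is on that scale and understates the change of low genes. A gene was called at a Benjamini-Hochberg adjusted p under 0.05. Of 10340 genes, 500 (4.84%) were called, 163 higher (1.58%) and 337 lower (3.26%) in JQ1 with paclitaxel. These shares of all genes are the ones to set beside the counts of called list members below. At an unadjusted p under 0.05 there were 2205 genes (21.3%). The median log2 fold change over all genes was -0.09. Median-ratio scaling moved that median to 0.01 and gave 184 higher and 202 lower calls, and quantile normalization gave 186 higher and 223 lower, so the excess of lower calls was smaller with either scaling. The call count itself rested on few libraries. Leaving out the first and then the second library of a group, the count was 236 and 54 for JQ1 with paclitaxel, 26 and 71 for vehicle, and 265 and 264 for the JQ1 and anti-PD-L1 group. It was 4 with depth as a covariate, which raised the median standard error to 0.466, against 0.306 without it. When each mouse code was reduced to a mean, vehicle, JQ1 alone and JQ1 with anti-PD-L1 kept 1 value each. Few values then remained to estimate the spread, so a lack of calls by mouse code below does not show that a change is absent. Of the 18 lists recounted in these ways, endothelial genes (2) and pericyte genes (1) kept calls with depth as a covariate, and no list did by mouse code. Pairs of counts below without either library of a group are given in the same order.

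**Figure D1:**
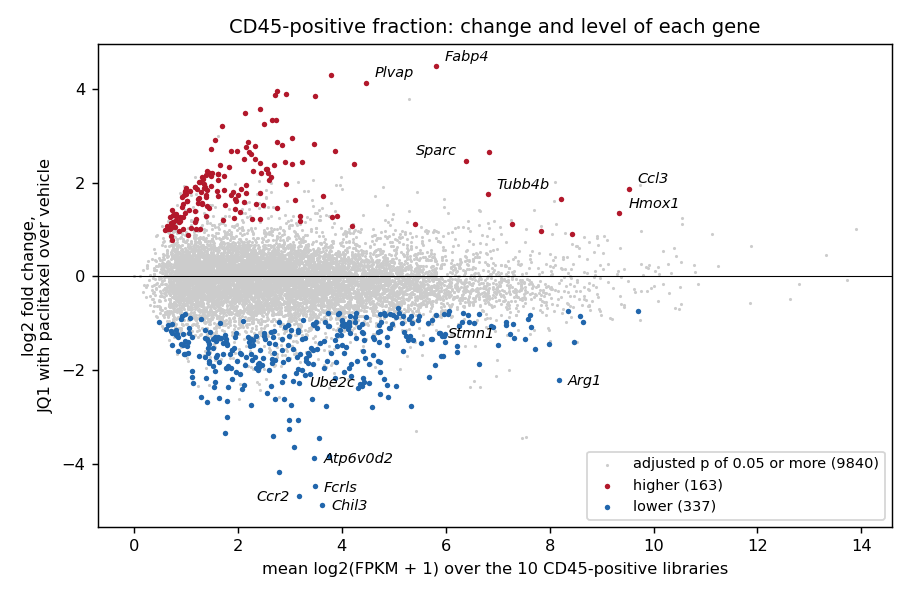
Each point is 1 of 10340 genes in the CD45-positive fraction. The horizontal axis gives its mean log2(FPKM + 1) over the 4 compared libraries, although the axis label names the 10 libraries. The vertical axis gives its log2 fold change, JQ1 with paclitaxel over vehicle. The 163 genes called higher (red) reach a log2 change of 4.49 at Fabp4, and the 337 called lower (blue) reach -4.88 at Chil3.

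Genes of blood vessels rose. Plvap, which builds the diaphragms of endothelial fenestrae, had 84.5 and 98.4 FPKM in JQ1 with paclitaxel against 4.28 and 4.26 FPKM in vehicle, a log2 change of 4.13 ± 0.22 (SE; limma adjusted p = 0.000148). Esam, an adhesion molecule of endothelial junctions, had 22.6 and 25.9 FPKM against 0.595 and 0.872 FPKM in vehicle. Pecam1, the platelet and endothelial adhesion molecule CD31, had 15.3 and 19.3 FPKM in JQ1 with paclitaxel against 1.10 and 1.96 FPKM in vehicle. In each of these genes the groups were far apart and did not overlap. Lack of overlap alone was common, found in 5421 of the 10340 genes. All 12 tested endothelial genes rose, with a median log2 change of 2.51 against -0.09 for all genes. They included the receptors Kdr, Flt1, Tek and Tie1, for which the lowest log2 change was 1.08 (Tek), and the junction genes Cdh5 and Cldn5. The number of called endothelial genes was 4 and 7 without either vehicle library, 10 and 5 without either JQ1 with paclitaxel library, 2 with depth as a covariate and 0 by mouse code.

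Genes of the vessel wall rose too. Col4a1 and Col4a2 encode the chains of type IV collagen in basement membranes. Col4a1 had 47.3 and 78.3 FPKM in JQ1 with paclitaxel against 1.01 and 3.91 FPKM in vehicle, and Col4a2 had 22.2 and 35.8 FPKM against 0.632 and 1.40 FPKM in vehicle. Of 9 tested pericyte and smooth muscle genes 7 rose, with a median log2 change of 1.74. Among them Rgs5, a regulator of G protein signalling and a pericyte marker, had 6.83 and 7.42 FPKM in JQ1 with paclitaxel against 0.0321 and 0.130 FPKM in vehicle. Mcam, an adhesion molecule of pericytes and endothelium, had 17.0 and 18.2 FPKM against 0.416 and 0.708 FPKM in vehicle. Cspg4, the NG2 proteoglycan, did not pass, at 1.67 and 0.810 FPKM in JQ1 with paclitaxel and 2.02 and 7.16 FPKM in vehicle. Acta2, smooth muscle actin, was the other gene that did not pass. Without either vehicle library 2 of the 9 pericyte genes were called, and 3 and 2 without either JQ1 with paclitaxel library.

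Fibroblast and matrix genes rose in part. Of 18 tested, 8 rose and 0 fell, with a median log2 change of 1.21. Sparc, a secreted glycoprotein that binds collagen, had 204 and 188 FPKM in JQ1 with paclitaxel against 47.4 and 25.3 FPKM in vehicle. Postn, which encodes periostin, had 17.9 and 15.1 FPKM against 2.24 and 2.26 FPKM in vehicle. Among fibrillar collagens Col1a2 and Col3a1 did not pass. Col1a2 had 91.3 and 37.7 FPKM in JQ1 with paclitaxel and 55.0 and 23.1 FPKM in vehicle (limma adjusted p = 0.637), which overlapped. None of the 18 was called without either vehicle library.

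These lists were chosen to mark cells other than leukocytes, and their levels were set beside the CD45-negative fraction of the same tumours. The summed level of 13 endothelial markers was 184 and 227 FPKM in the JQ1 with paclitaxel libraries and 11.8 and 16.2 FPKM in the vehicle libraries, and no marker was at 0 in any of them. That was 264% and 448% of the sum in the CD45-negative library of the same tumour for JQ1 with paclitaxel, and 105% and 77.8% for vehicle. The other treated groups also lay above vehicle in the endothelial sum. It was 76.3 and 75.9 FPKM in JQ1 alone, 70.1 and 57.1 FPKM in the 3-drug group, and 29.0 and 32.7 FPKM in JQ1 with anti-PD-L1. The summed level of 11 pericyte markers was 75.6% and 94.4% of the CD45-negative sum for JQ1 with paclitaxel, and 4.95% and 5.71% for vehicle, where 2 markers were at 0 in the first library. The 22 fibroblast markers summed to 524 and 378 FPKM in JQ1 with paclitaxel and 180 and 108 FPKM in vehicle, or 12.8% and 18.8% against 5.24% and 3.0% of the CD45-negative sum. All 3 sums were higher in both JQ1 with paclitaxel libraries than in both vehicle libraries, and calls against vehicle fell to 18 with the fibroblast sum as a covariate and to 0 with the endothelial sum, which raised the median standard error to 2.67, against 0.306 without it. In bulk samples a change in the number of cells of a type cannot be told apart from a change in RNA per cell.

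**Figure D2:**
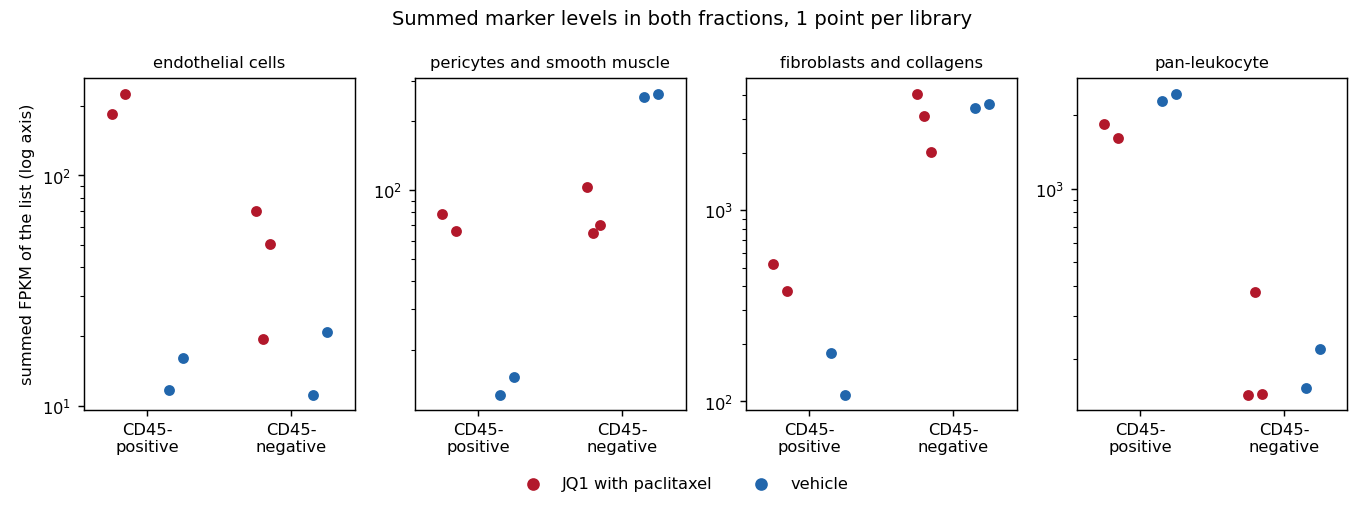
Each panel shows the summed FPKM of 1 marker list on a log axis, 1 point per library, with JQ1 with paclitaxel in red and vehicle in blue, for the CD45-positive and CD45-negative fractions. Endothelial sums in the CD45-positive fraction were 184 and 227 in JQ1 with paclitaxel against 11.8 and 16.2 in vehicle, while pan-leukocyte sums were 1849 and 1622 against 2282 and 2460.

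Several genes outside these lists rose. Fabp4, a fatty acid binding protein of adipocytes, macrophages and capillary endothelium, had the largest increase of the called genes, with 163 and 430 FPKM in JQ1 with paclitaxel against 9.92 and 11.9 FPKM in vehicle (log2 change 4.49 ± 0.39 SE, limma adjusted p = 0.0011). Adamts4, a protease that cleaves aggrecan, had 27.3 and 63.3 FPKM against 2.16 and 1.75 FPKM in vehicle. Selp, the P-selectin of activated endothelium and platelets, had 13.6 and 29.6 FPKM against 0.712 and 1.60 FPKM in vehicle. Timp3 inhibits metalloproteinases, Serping1 inhibits complement C1, and Cyp4b1 is a cytochrome P450, and their log2 changes were 3.26, 3.33 and 3.49. Hmox1, the enzyme that degrades heme, had 967 and 1110 FPKM in JQ1 with paclitaxel against 332 and 495 FPKM in vehicle.

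Among monocyte genes Ccr2, Chil3 and Fcgr1 fell. Ccr2, the receptor that brings monocytes out of bone marrow and into tissue, had 0.990 and 0.588 FPKM in JQ1 with paclitaxel against 39.5 and 50.5 FPKM in vehicle, a log2 change of -4.68 ± 0.56 (SE; limma adjusted p = 0.0045). Chil3, a chitinase-like protein of monocytes and alternatively activated macrophages, had 0.653 and 2.13 FPKM against 73.9 and 58.7 FPKM in vehicle. Fcgr1, the high-affinity Fc gamma receptor, had 7.66 and 7.60 FPKM against 29.5 and 45.2 FPKM in vehicle. These were the 3 called genes among 25 tested monocyte and macrophage genes, and 0 rose. The list median was -0.61. General macrophage genes named here did not pass. Csf1r, the receptor for macrophage colony-stimulating factor, had 284 and 180 FPKM in JQ1 with paclitaxel and 296 and 406 FPKM in vehicle, and Lyz2, which encodes lysozyme, had 14021 and 10269 FPKM against 8083 and 9474 FPKM in vehicle. Chil3 was also low, at 3.19 FPKM, in 1 of the 2 libraries of JQ1 alone, which had 37.8 FPKM in the other. None of the 25 genes was called without either vehicle library or without the second JQ1 with paclitaxel library.

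A few receptors of myeloid cells fell. Of 20 tested Fc receptor and C-type lectin genes 4 fell and 0 rose, with a median log2 change of -1.20. Clec4a2 and Clec4a3 belong to the dendritic cell immunoreceptor family. Clec4a2 had 1.23 and 1.61 FPKM in JQ1 with paclitaxel against 26.9 and 31.2 FPKM in vehicle. Fcrls, an Fc receptor-like scavenger gene, had 1.63 and 1.13 FPKM against 42.6 and 63.4 FPKM in vehicle, and the paired SIRP genes Sirpb1a and Sirpb1b had log2 changes of -3.45 and -3.07. Among 26 tissue and alternatively activated macrophage genes 2 fell, beside 3.26% of all genes called lower. They were Arg1, which encodes arginase, and Trem2, a lipid-sensing receptor. Arg1 had 219 and 82.6 FPKM in JQ1 with paclitaxel against 725 and 536 FPKM in vehicle, and Trem2 had 120 and 79.6 FPKM against 228 and 231 FPKM in vehicle. Spp1, C1qa and Apoe of that list did not pass, and its median of -0.23 became 0.31 with depth as a covariate and 0.16 without the second JQ1 with paclitaxel library. No Fc receptor or lectin gene was called when any 1 of the 4 compared libraries was left out.

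Genes of osteoclasts and multinucleated giant cells fell in part. Atp6v0d2, a proton pump subunit needed for cell fusion, had 4.40 and 0.554 FPKM in JQ1 with paclitaxel against 47.3 and 36.2 FPKM in vehicle. Ocstamp and Dcstamp encode membrane proteins needed for fusion of osteoclast precursors. Ocstamp had 1.81 and 0.361 FPKM against 23.9 and 16.4 FPKM in vehicle, and Dcstamp had 0.803 and 0.853 FPKM against 10.3 and 7.22 FPKM in vehicle. Oscar, a collagen receptor of osteoclasts, and Nfatc1, their master transcription factor, also fell, so that 5 of 12 tested genes fell and 0 rose, with a median log2 change of -2.14. The proteases Ctsk and Mmp9 and the phosphatase Acp5 did not pass. Ctsk had 121 and 25.7 FPKM in JQ1 with paclitaxel and 799 and 472 FPKM in vehicle, so the JQ1 with paclitaxel libraries lay far apart. The other treated groups had low levels of these genes too, with Ocstamp at 1.60 to 5.57 FPKM in all 6 of their libraries. Without either vehicle library 1 of the 12 was called, and 4 and 2 without either JQ1 with paclitaxel library.

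**Figure D3:**
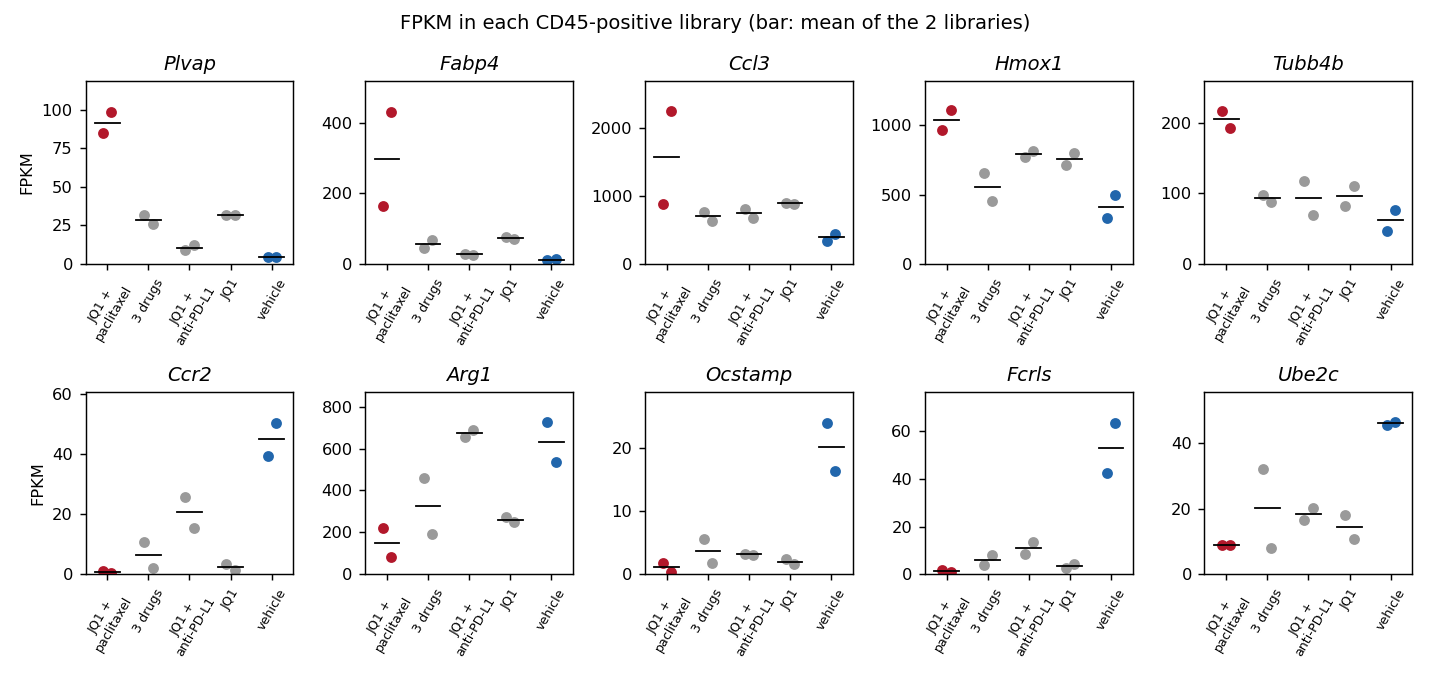
FPKM of 10 genes in each of the 10 CD45-positive libraries, with JQ1 with paclitaxel in red, vehicle in blue and the other groups in grey; the bar is the mean of the 2 libraries of a group. Plvap, Fabp4 and Tubb4b are higher in both JQ1 with paclitaxel libraries than in all 8 others, and Ocstamp, Fcrls and Ube2c are lower in all 8 treated libraries than in both vehicle libraries.

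Neutrophil genes were mostly lower in value but rarely called. Of 19 tested, Retnlg and Mmp8, genes of neutrophil granules and their secretion, fell and 0 rose. Retnlg was listed at 0 in 1 JQ1 with paclitaxel library and had 1.70 FPKM in the other, against 40.7 and 19.9 FPKM in vehicle. S100a8, a subunit of calprotectin, had 47.3 and 114 FPKM in JQ1 with paclitaxel and 369 and 238 FPKM in vehicle and did not pass. No neutrophil gene was called when any 1 of the 4 compared libraries was left out. Of 22 T cell genes 1 rose, Thy1, which the fibroblast list also holds, beside 1.58% of all genes called higher. None of 13 B cell, 15 cytotoxic and NK cell, 14 checkpoint and regulatory T cell or 22 dendritic cell genes was called.

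Interferon response genes passed the test in few cases. Of 30 type I interferon response genes 4 fell (Oas1a, Oas2, Xaf1 and Ifi27l2a) and 0 rose, with 25 of 30 log2 changes below 0 and a median of -0.80. With the summed fibroblast level as a covariate that median was -0.02, 15 of 30 changes were below 0 and none was called. Oas1a, which makes the second messenger that activates RNase L, had 10.2 and 8.40 FPKM in JQ1 with paclitaxel against 22.2 and 24.6 FPKM in vehicle. Of 23 interferon gamma response genes 1 rose, Iigp1, beside 1.58% of all genes called higher. Iigp1, an immunity-related GTPase, had 11.3 and 41.8 FPKM in JQ1 with paclitaxel against 1.88 and 2.07 FPKM in vehicle. The median of the interferon gamma list was 0.98, and it was 1.54 and 0.42 without the first and the second JQ1 with paclitaxel library. With depth as a covariate it was 0.08, with 14 changes above 0 and 9 below, against 21 and 2 without the covariate. Gbp4, a guanylate-binding protein that did not pass, had 7.89 and 36.4 FPKM in JQ1 with paclitaxel and 5.01 and 3.48 FPKM in vehicle. No type I interferon gene was called without either vehicle library, and 1 and 0 without either JQ1 with paclitaxel library. Ccl3, an inflammatory chemokine, had 885 and 2242 FPKM in JQ1 with paclitaxel against 333 and 443 FPKM in vehicle and rose. Cxcl14 fell, with 27.8 and 19.7 FPKM against 46.5 and 64.5 FPKM in vehicle. Cd274, which encodes PD-L1, had 26.5 and 91.5 FPKM in JQ1 with paclitaxel and 38.2 and 17.7 FPKM in vehicle, which overlapped. No MHC class I or class II gene was called, of 20 and 16 tested.

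Many genes of cell division fell. Of 24 tested G2/M and mitosis genes 13 fell and 0 rose, and all 24 log2 changes were below 0, with a median of -1.32. The list was lower in both fractions: 17 of 24 fell in the CD45-negative fraction of the same treatment. In the CD45-positive fraction its summed level was 99.8 and 68.0 FPKM in JQ1 with paclitaxel against 273 and 300 FPKM in vehicle. All 24 genes were higher in the CD45-negative than in the CD45-positive libraries of these tumours. Epithelial and tumour cell markers summed to 177 and 109 FPKM in JQ1 with paclitaxel and 203 and 278 FPKM in vehicle. That sum does not give the list's direction, since 8 changes were above 0 and 4 below, with a median of 0.20. Kcnn4 made up much of the vehicle sum, with 12.1 and 13.3 FPKM against 99.2 and 181 FPKM in vehicle. In CD45-negative vehicle libraries Kcnn4 had 42.2 and 58.3 FPKM. Krt8 had 46.7 and 21.9 FPKM in JQ1 with paclitaxel and 18.5 and 18.2 FPKM in vehicle. Ube2c, the ubiquitin-conjugating enzyme of the anaphase-promoting complex, had 8.82 and 8.99 FPKM in JQ1 with paclitaxel against 45.6 and 46.5 FPKM in vehicle. Ccnb1 and Ccnb2 encode the cyclins that drive entry into mitosis, and Cdca8 a subunit of the chromosomal passenger complex. Ccnb2 had 6.26 and 1.59 FPKM against 24.2 and 26.9 FPKM in vehicle. Mki67 was lower by value at 1.55 and 2.44 FPKM in JQ1 with paclitaxel and 3.37 and 3.65 FPKM in vehicle, and did not pass. No gene of the list was called without either vehicle library, or without the second JQ1 with paclitaxel library, or with depth as a covariate.

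Mitotic promoters are known for 2 short elements, TTTGAA, the core of the cell cycle homology region, and CCAAT, bound by NF-Y. The promoters of the 4 called mitotic genes with the largest fall are shown so that these letters can be seen in place. Each line gives the 200 bases before the start of the transcript from RefSeq, build GRCm38.p6, 5′ to 3′ on the gene's strand, with matches to either motif on either strand in capitals.
Ccnb2, chr9:70421555-70421754, minus strand: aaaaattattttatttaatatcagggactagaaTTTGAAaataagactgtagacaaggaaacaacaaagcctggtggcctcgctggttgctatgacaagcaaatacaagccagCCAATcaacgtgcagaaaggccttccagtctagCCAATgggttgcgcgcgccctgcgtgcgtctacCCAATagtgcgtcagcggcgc
Ube2c, chr2:164769729-164769928, plus strand: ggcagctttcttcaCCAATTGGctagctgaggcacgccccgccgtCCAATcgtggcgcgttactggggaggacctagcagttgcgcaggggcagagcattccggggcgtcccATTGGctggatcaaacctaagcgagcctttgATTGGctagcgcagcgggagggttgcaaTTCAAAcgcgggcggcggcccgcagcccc
Cdca8, chr4:124936918-124937117, minus strand: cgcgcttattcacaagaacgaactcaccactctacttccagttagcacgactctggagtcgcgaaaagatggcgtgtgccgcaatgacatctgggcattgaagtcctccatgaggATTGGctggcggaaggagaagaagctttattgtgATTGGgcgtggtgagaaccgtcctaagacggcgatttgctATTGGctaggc
Ccnb1, chr13:100786487-100786686, minus strand: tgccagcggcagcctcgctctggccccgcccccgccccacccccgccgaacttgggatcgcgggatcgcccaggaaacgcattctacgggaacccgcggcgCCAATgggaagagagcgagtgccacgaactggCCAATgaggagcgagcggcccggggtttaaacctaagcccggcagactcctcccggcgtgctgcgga
These windows hold 3, 5, 3 and 2 matches to CCAAT, of which a pair overlaps in Ube2c, and TTTGAA is found in Ccnb2 and Ube2c but not in the windows of Cdca8 and Ccnb1.

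Motif shares depended on the window. TTTGAA, on either strand, was found in 16 of 21 promoters of the mitosis list (76.2%; 20 of 24 genes matched the table) when 250 bases before and 50 after the start were read, against 17.9% of all 32851 promoters. In the 250 bases before the start alone it was found in 9 of 21 (42.9%), against 16.0% of all promoters. CCAAT was found in 18 of 21 (85.7%) over either window, against 37.4% and 33.9% of all promoters. These 2 motifs were chosen for display after 5 motifs had been read over 6 lists. The others were the interferon-stimulated response element, TGANTCA and TTTCC, and the other lists were DNA replication, type I interferon, osteoclast, respiratory chain and endothelial genes. Of the remaining motif and list pairs over the longer window, the interferon-stimulated response element was found in 46.2% of 26 type I interferon promoters against 3.44% of all (34.6% against 2.98% in the 250 bases before the start), and TGANTCA in 23.1% against 7.81%. CCAAT was found in 58.3% of 24 DNA replication promoters. Among 11 promoters of the mitosis genes that fell, CCAAT and TTTGAA were each found in 72.7% over the longer window. Both shares were below those of the whole mitosis list over that window. In the 250 bases before the start CCAAT was found in 72.7% of the 11, again below the whole list. TTTGAA was found there in 45.45%, above the 42.9% of the whole list. A match describes letters only, and the shares were not tested.

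Some genes of tubulin, the protein that paclitaxel binds, rose. Of 17 tested tubulin, stathmin and exporter genes 5 rose, all of them tubulins, and 1 fell. Tubb4b, a beta-tubulin, had 217 and 193 FPKM in JQ1 with paclitaxel against 46.9 and 76.4 FPKM in vehicle, and Tuba1a, an alpha-tubulin, had 258 and 198 FPKM against 97.7 and 110 FPKM in vehicle. Tuba1b, Tuba1c and Tubb4a had log2 changes of 0.90, 0.97 and 1.01. Tubulin genes share sequence, so reads may be split among them. Stmn1, which encodes the microtubule-destabilising protein stathmin, fell, with 40.6 and 34.5 FPKM against 88.5 and 86.5 FPKM in vehicle. The drug exporter genes Abcb1a, Abcb1b, Abcc1 and Abcg2 did not pass. No tubulin gene was called without the first vehicle library or without either JQ1 with paclitaxel library.

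Known reporters of BET inhibition were higher in value without passing. Hexim1, which holds P-TEFb inactive, had 4.80 and 4.74 FPKM in JQ1 with paclitaxel and 0.993 and 1.99 FPKM in vehicle (limma adjusted p = 0.121). Brd2, a BET gene, had 109 and 98.8 FPKM against 28.2 and 47.3 FPKM in vehicle (limma adjusted p = 0.113). In neither gene did the groups overlap, which was also so for 5421 of the 10340 genes. Myc had 16.1 and 11.5 FPKM in JQ1 with paclitaxel and 19.1 and 18.6 FPKM in vehicle (limma adjusted p = 0.338). Bcl2l11, which encodes the pro-apoptotic protein BIM, had 23.6 and 28.3 FPKM against 11.2 and 14.2 FPKM in vehicle (limma adjusted p = 0.0716). None of 14 genes of the BET and P-TEFb list was called.

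Genes of other programmes fell in part. Of 34 respiratory chain genes 5 fell (Ndufb7, Ndufs8, Sdhb, Uqcrc2 and Atp5o) and all 34 log2 changes were below 0, with a median of -0.49. With quantile normalization 32 of 34 were below 0, the median was -0.30 and 2 were called. None was called without either vehicle library. Sdhb, a subunit of complex II, had 82.9 and 77.8 FPKM in JQ1 with paclitaxel against 174 and 166 FPKM in vehicle. Of 25 DNA replication genes 2 fell, Tk1 and Rfc4, beside 3.26% of all genes called lower. Of 58 histone genes 11 fell and 0 rose in the CD45-positive fraction, whereas 28 rose and 3 fell in the CD45-negative fraction, which was tested apart. The CD45-positive median was 0.03, with 30 changes above 0 and 28 below, and 0 of the 44 histone genes not higher in the CD45-negative fraction were called when those genes alone were tested. Histone genes are near-identical copies, and how shared reads were assigned is not given in the sources used here. Without either vehicle library 0 and 2 histone genes were called lower, and without either JQ1 with paclitaxel library 7 and 0. Hist1h2ag had 14.8 and 9.79 FPKM against 67.2 and 52.0 FPKM in vehicle. None of the listed ribosomal protein, MYC target, p53, unfolded protein, hypoxia or immediate early genes was called. Rpl26, a ribosomal protein gene outside that list, was called lower (limma adjusted p = 0.0115). It had 0.000643 and 0.000964 FPKM in JQ1 with paclitaxel against 2.85 and 5.15 FPKM in vehicle. The JQ1 and JQ1 with anti-PD-L1 libraries had 0.000461 to 0.000861 FPKM of it, and the 3-drug libraries 8.52 and 3.65 FPKM. In the CD45-negative fraction Rpl26 had 7.72, 0.00109 and 11.9 FPKM in JQ1 with paclitaxel and 20.8 and 13.9 FPKM in vehicle. Near-zero and higher values thus occurred within 1 treatment.

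Most other lists held a single call or none. Of 18 complement genes C1s1, a protease of the classical pathway, rose with Serping1, and Cfp, which encodes properdin, fell. C1s1 had 3.95 and 5.48 FPKM in JQ1 with paclitaxel against 0.918 and 0.340 FPKM in vehicle, and Cfp had 154 and 87.0 FPKM against 278 and 310 FPKM in vehicle. Il18, an inflammasome-processed cytokine, had 2.53 and 2.72 FPKM in JQ1 with paclitaxel against 7.66 and 8.58 FPKM in vehicle. It was the 1 call among 21 inflammatory cytokine genes, beside 4.84% of all genes called in either direction. Hp, which encodes the haemoglobin scavenger haptoglobin, fell, with 8.04 and 8.61 FPKM against 30.5 and 26.1 FPKM in vehicle. The initiator caspase gene Casp8, the mitochondrial chaperone gene Hspd1 and the lysosomal hexosaminidase gene Hexa fell by less, with log2 changes of -0.85, -0.84 and -0.90. Outside the lists, Slc9b2, a sodium-proton exchanger, had 5.55 and 0.935 FPKM in JQ1 with paclitaxel against 54.9 and 45.4 FPKM in vehicle, and Ms4a4c had 5.97 and 10.9 FPKM against 62.2 and 62.6 FPKM in vehicle. No epithelial, erythroid, platelet or mast cell gene was called, of 12, 3, 3 and 1 tested.

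**Figure D4:**
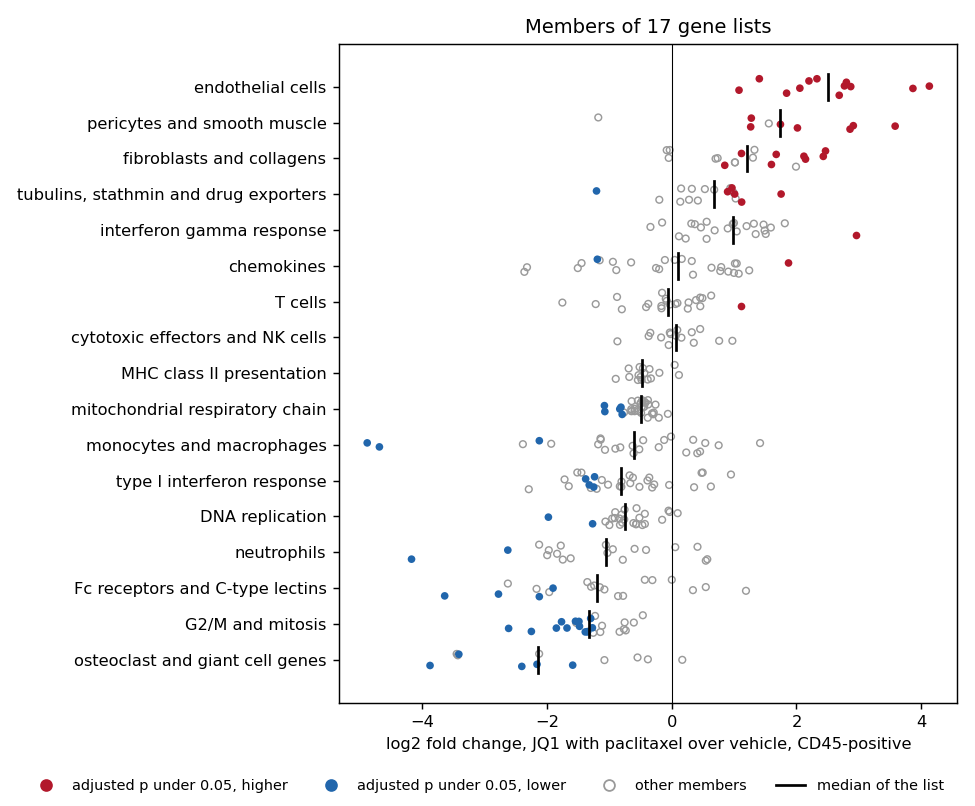
Log2 fold changes, JQ1 with paclitaxel over vehicle, of the tested members of 17 gene lists in the CD45-positive fraction, with filled points at adjusted p under 0.05 and a bar at each list's median. All 12 endothelial genes lie above 0 and are called, and all 24 G2/M genes lie below 0 with 13 called.

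The same treatment was then set beside JQ1 alone and the 3-drug group. Against JQ1 alone 0 of 10340 genes (0%) were called with limma, and 1038 (10%) had an unadjusted p under 0.05. The genes nearest to a call were Napsa, an aspartic protease, and Cytip, a leukocyte adaptor, both with an adjusted p of 0.0512. Napsa had 8.67 and 8.23 FPKM in JQ1 with paclitaxel against 29.2 and 37.6 FPKM in JQ1 alone, and Cytip had 6.37 and 5.63 FPKM against 22.5 and 23.7 FPKM in JQ1 alone. In vehicle Napsa had 36.6 and 30.4 FPKM and Cytip 8.01 and 6.27 FPKM. T cell genes summed to 69.2 and 33.0 FPKM in JQ1 with paclitaxel and 493 and 154 FPKM in JQ1 alone. The vehicle sums were 66.6 and 48.3 FPKM. B cell genes summed to 90.7 and 39.2 FPKM against 251 and 231 FPKM in JQ1 alone, and to 65.8 and 81.5 FPKM in vehicle. Ltb, which encodes lymphotoxin beta, had 5.08 and 3.03 FPKM against 34.7 and 19.0 FPKM in JQ1 alone. Il2rb, a chain of the interleukin-2 receptor, had 3.46 and 3.18 FPKM against 28.1 and 16.8 FPKM in JQ1 alone. In vehicle Ltb had 5.59 and 4.43 FPKM and Il2rb 2.86 and 4.15 FPKM, so these 2 genes were near vehicle in JQ1 with paclitaxel. Plvap had 84.5 and 98.4 FPKM against 31.5 and 31.7 FPKM in JQ1 alone (adjusted p = 0.0704). JQ1 with paclitaxel and JQ1 alone did not overlap in any of these genes, and none passed. How many of all genes lacked overlap was not counted for this comparison. Against the 3-drug group 1 gene (0.00967%) was called and 1331 (12.9%) had an unadjusted p under 0.05. It was Mir6236, a microRNA locus named after its values were seen, with 655 and 477 FPKM in JQ1 with paclitaxel against 88.7 and 67.9 FPKM in the 3-drug group. These comparisons share the JQ1 with paclitaxel libraries with the comparison with vehicle.

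In the CD45-negative fraction of the same treatment, in 3 and 2 libraries and a table of its own, 1893 of 10780 genes (17.6%) were called, 570 higher (5.29%) and 1323 lower (12.3%). Ccl3 rose and Ccr2 fell there as well, with log2 changes of 2.39 and -1.87 against 1.87 and -4.68 in the CD45-positive fraction. Of 10 tested endothelial genes 1 was called higher in the CD45-negative fraction, with a list median of 0.91, and of 22 fibroblast genes 1 was called in each direction, with a median of -0.20. The difference between the fractions was not tested.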

How the data were processed

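Bulk RNA was measured in 22 libraries of 2 fractions, of which the 10 CD45-positive ones are the main data. Per the labels, libraries came from less than 10 ng of RNA with a low-input kit, and per the submitters' processing notes the aligner was STAR 2.5.1b and the build mm9. The step that made gene values is not given in the sources used here. FPKM came as 1 table per fraction: the authors deposited these FPKM under a label that speaks of counts, and the unit was taken from the values, which have decimals. CD45-positive columns sum to 315256 to 364118 FPKM. Of 24353 symbols 77 matched no current or older mouse symbol. No columns were left out.

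Relative depth came from the steps between low values, of which 63.5% lay within 0.05 steps of a whole multiple. Absolute depth and counting error stayed unknown, so precision rests on 2 libraries a group, whose log2 values correlated across genes at 0.938 to 0.977. Genes with at least 1 FPKM in 2 libraries were kept. For each fraction limma 3.58.1 in R 4.3.3, with its trend option, fitted log2(FPKM + 1) over the 5 groups (5 residual degrees of freedom, 8.94 after moderation, CD45-positive). Tests were two-sided. On 5 simulated sets with 200 changed genes, the CD45-positive test with vehicle found 21.4% of the genes moved by 1 on the log2 scale and 89.2% of those moved by 2, and 5.95% of its calls were unchanged genes. The sets drew independent normal noise for each gene and library with the fitted spread, and held no effect of mouse code or depth. The 5.95% therefore cannot be read as the share of false calls among the 500. The design assumed FPKM, which held. Promoters are RefSeq's (GRCm38.p6); no other coordinates were used. Figures used Python 3.11.15 and matplotlib 3.10.9.

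Named genes were the 12 highest and 12 lowest called fold changes among genes averaging 2 or more in log2(FPKM + 1) whose groups did not overlap, up to 4 called or 3 highest members of each of 45 lists, Ptprc, Myc, Hexim1, Brd2, Cd274 and Bcl2l11, and 5 each way for the other contrasts; Mir6236, Acta2, Ier3, Gbp4, Cdh5, Kdr, Tek, Mki67, Csf1r, Lyz2, S100a8, Ctsk and Cspg4 and some other list members were named after their values were seen. Members and lists were chosen with earlier results of these data known. Alternatives were pseudocounts, filters, scalings, the compared groups alone, depth, mouse code, leaving out libraries and genes higher in the other fraction, and, added after the data were seen, covariates of summed fibroblast and endothelial levels.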

Additional observations from a re-analysis of the deposited data

Results flagged for a closer look

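Acta2, which encodes smooth muscle actin, and Ier3, an immediate early gene, had log2 changes of opposite sign in the 2 fractions, with every JQ1 with paclitaxel library on one side of both vehicle libraries in each fraction. The difference between the fractions was not tested, and the smallest change considered was set after values had been seen. Over all genes the groups lacked overlap in 5421 of 10340 in the CD45-positive fraction. In the CD45-negative fraction they did so in 5238 of 10780. Acta2 had a log2 change of 1.56 in the CD45-positive fraction, with 26.0 and 19.8 FPKM in JQ1 with paclitaxel and 8.92 and 5.54 FPKM in vehicle, and of -1.85 in the CD45-negative fraction. With the summed fibroblast level as a covariate its CD45-positive change was -0.22, the same sign as in the CD45-negative fraction. That covariate was itself highest in the 2 JQ1 with paclitaxel libraries and raised the median standard error to 0.487, against 0.306 without it. The value therefore does not settle the sign. Ier3 had a log2 change of 0.85 (0.851) in the CD45-positive fraction, with 597 and 699 FPKM in JQ1 with paclitaxel and 475 and 269 FPKM in vehicle, and of -0.53 in the CD45-negative fraction. Neither gene passed the CD45-positive test (limma adjusted p = 0.146 and 0.249).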

How the results depend on the processing

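No paired analysis was possible because the labels give no replicate number that links libraries of different treatments. Titles do link the 2 fractions of a tumour, but the fractions are separate tables and were not tested against each other. Against vehicle, 500 CD45-positive calls became 313 with a filter of 5 FPKM, 259 among genes not higher in the CD45-negative fraction, 4 with depth as a covariate, 0 by mouse code (1115 at an unadjusted p under 0.05) and 26 to 543 when leaving out 1 library. The 2 covariates added after the data were seen gave 18 (summed fibroblast level) and 0 (summed endothelial level). Against JQ1, 0 calls became 4 with no filter, 2 with a filter of 5 FPKM, 8 among genes not higher in the CD45-negative fraction and 0 to 61 when leaving out 1 library (61 without the second JQ1 library, 28 without the first JQ1 with paclitaxel library). Against the 3-drug group, 1 call became 2 with a pseudocount of 0.1, 6 with a filter of 5 FPKM, 6 with median-ratio scaling, 0 to 5 when leaving out 1 library, and 0 with no filter, the compared groups alone, depth, mouse code, the fibroblast covariate or genes not higher in the CD45-negative fraction. The CD45-negative count of 1893 became 274 by mouse code and 571 to 1886 when leaving out 1 library.

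Of 78 named calls, 75 missed the threshold with depth as a covariate, which raised the median standard error to 0.466. All signs were unchanged with that covariate and by mouse code, where vehicle kept 1 value. The fibroblast covariate raised the median standard error to 0.487, against 0.306 without it. The endothelial covariate, a sum that includes Pecam1 itself, raised that error to 2.67. Under it these log2 changes against vehicle changed sign: Col4a1 -3.31, Col4a2 -0.47, Serping1 -1.88, Selp -1.62, Iigp1 -0.85, Chil3 0.48, Atp6v0d2 6.17, Slc9b2 6.83, Mmp8 0.65, Oscar 0.997, Ccl3 -3.93, Hist1h1b 1.595, Hexa 0.93, Hp 1.52, Hmox1 -3.18, Pecam1 -0.98, Adgrl4 -0.47, Ms4a6b 0.00648, Myc 1.27, Cd274 -5.99 and Bcl2l11 -0.48. List medians also changed sign under the endothelial covariate for osteoclast (0.43), interferon gamma (-2.12), tubulin (-0.75), respiratory chain (0.13) and tissue macrophage (1.48) genes. The same held for T cell (1.84), chemokine (-1.03) and complement (-1.08) genes, whose medians without it were -0.05, 0.11 and 0.08. The monocyte and macrophage median was -0.19 with the fibroblast covariate. The fibroblast covariate changed the sign of Ptprc (0.37) and Acta2 (-0.22), and Ptprc ranged over -0.432 to 0.0194 when leaving out 1 library, the highest without the second vehicle library. The causes were not tested. Groups of 2 libraries and unknown read totals limit the precision.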
